A study of Homo sapiens with 8 samples.

Results

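The melanocyte lineage and melanoma state genes are 37 genes that were taken by symbol from the 58051 genes of the deposited count tables: the factors that specify melanocytes, the pigment and melanosome genes under them, and genes that mark dedifferentiated or neural-crest-like melanoma cells. All 37 were found by gene identifier, 28 had enough counts to be tested and 9 did not. RNA was sequenced from A375, a human melanoma cell line, in 4 lines that had each been grown from a single cell (WT1 to WT4). Each line was kept for 12 h in DMEM with 10% fetal bovine serum or in DMEM without it, which gave 4 libraries per condition and 1 library per line and condition. All 8 samples are labelled WT, each line stands for 1 clone, and nothing states that a line's libraries came from repeated cultures. The study sought secreted factors behind junctions between melanoma cells after serum removal. The comparisons described here are serum-free against serum and line against line.

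Melanocytes arise from the neural crest, and *MITF* is the transcription factor that directs their pigment program, with *SOX10* and *PAX3* acting upstream of it and *TYR*, *TYRP1*, *DCT*, *PMEL* and *MLANA* downstream. *MITF* and related factors bind a DNA element known as the M-box in the promoters of pigment genes, and cyclic AMP acts on the melanocyte promoter of *MITF* through a cyclic AMP response element (CRE). Melanoma cells can lose this program, and cells in such states often carry the nerve growth factor receptor *NGFR*, the Wnt ligand *WNT5A* or transcription factors of the epithelial-mesenchymal transition (EMT).

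Each library held between 29759279 and 73341551 counts on genes. In the serum libraries of WT1 and WT2, 22.7% and 16.8% of reads aligned to several places, against 5.73% to 10.1% in the other 6. The count tables of line WT4 go by a different line name, and WT4 is used here as its sample titles give it. Most markers of other cell types were low, but *KRT10* (17.5 RPKM over 8 libraries, a read count scaled to exon length and library size), *KRT14* (7.21) and *KDR* (3.77) were above the median of all genes tested. Of 8 keratinocyte markers 3 were tested, *KRT1* and *IVL* had 0 counts, and the summed level was 54.6 to 64.6 CPM (counts scaled to library size) with serum and 43.5 to 56.2 without, nearly all from *KRT10* and *KRT14*. Fibroblast markers summed to 6.65 to 10.7 CPM with serum and 8.32 to 10.7 without, with *COL1A2* at 20 counts over all libraries. By edgeR without a block 1 fibroblast marker was higher without serum (*PDGFRA*, 1.77, adjusted p = 0.00767) and 1 keratinocyte marker lower (*KRT10*, -0.31, adjusted p = 0.0253), both with no overlap between conditions. With the block *DCN* (0.90, edgeR adjusted p = 0.0125) and *KDR* (0.35, edgeR adjusted p = 0.00799) were higher too. Markers also differed between lines, in 2 of 3 tested keratinocyte, 3 of 4 fibroblast, 1 of 2 immune and 2 of 5 endothelial genes, against 22.9% of all genes tested, with *KDR* highest in WT2 (edgeR adjusted p = 2.15e-06) and *LYZ* and *PDGFRA* in WT4. Their part in the results for serum and for lines was not tested. Immune markers summed to 3.04 to 6.93 and 3.96 to 8.43 CPM, with *MS4A1* at 0. Endothelial markers summed to 14.2 to 42.7 and 19.1 to 48.6 CPM, most of it *KDR*.

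Levels between genes are given as RPKM. The 37 genes ran from among the highest expressed genes to no counts at all. Of the 28 tested, 15 were above 2.856 RPKM, the median of all 17671 genes tested. The highest were *CSPG4* (53.9 RPKM over 8 libraries), *NES* (51.6) and *NGFR* (23.8), all genes of neural-crest-like cells. None of the 9 melanin synthesis and melanosome genes reached that median. *MLANA* was the highest of them at 0.318 ± 0.0516 RPKM with serum and 0.336 ± 0.119 without (s.d., n = 4). Of 7 defining markers of melanocytic cells, *S100B* (11.6 RPKM over 8 libraries) and *MITF* (4.94) were above the median, *MLANA*, *PMEL* and *DCT* were below it, *TYR* had 5 counts in all and *SOX10* had 0.

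**Figure D1:**
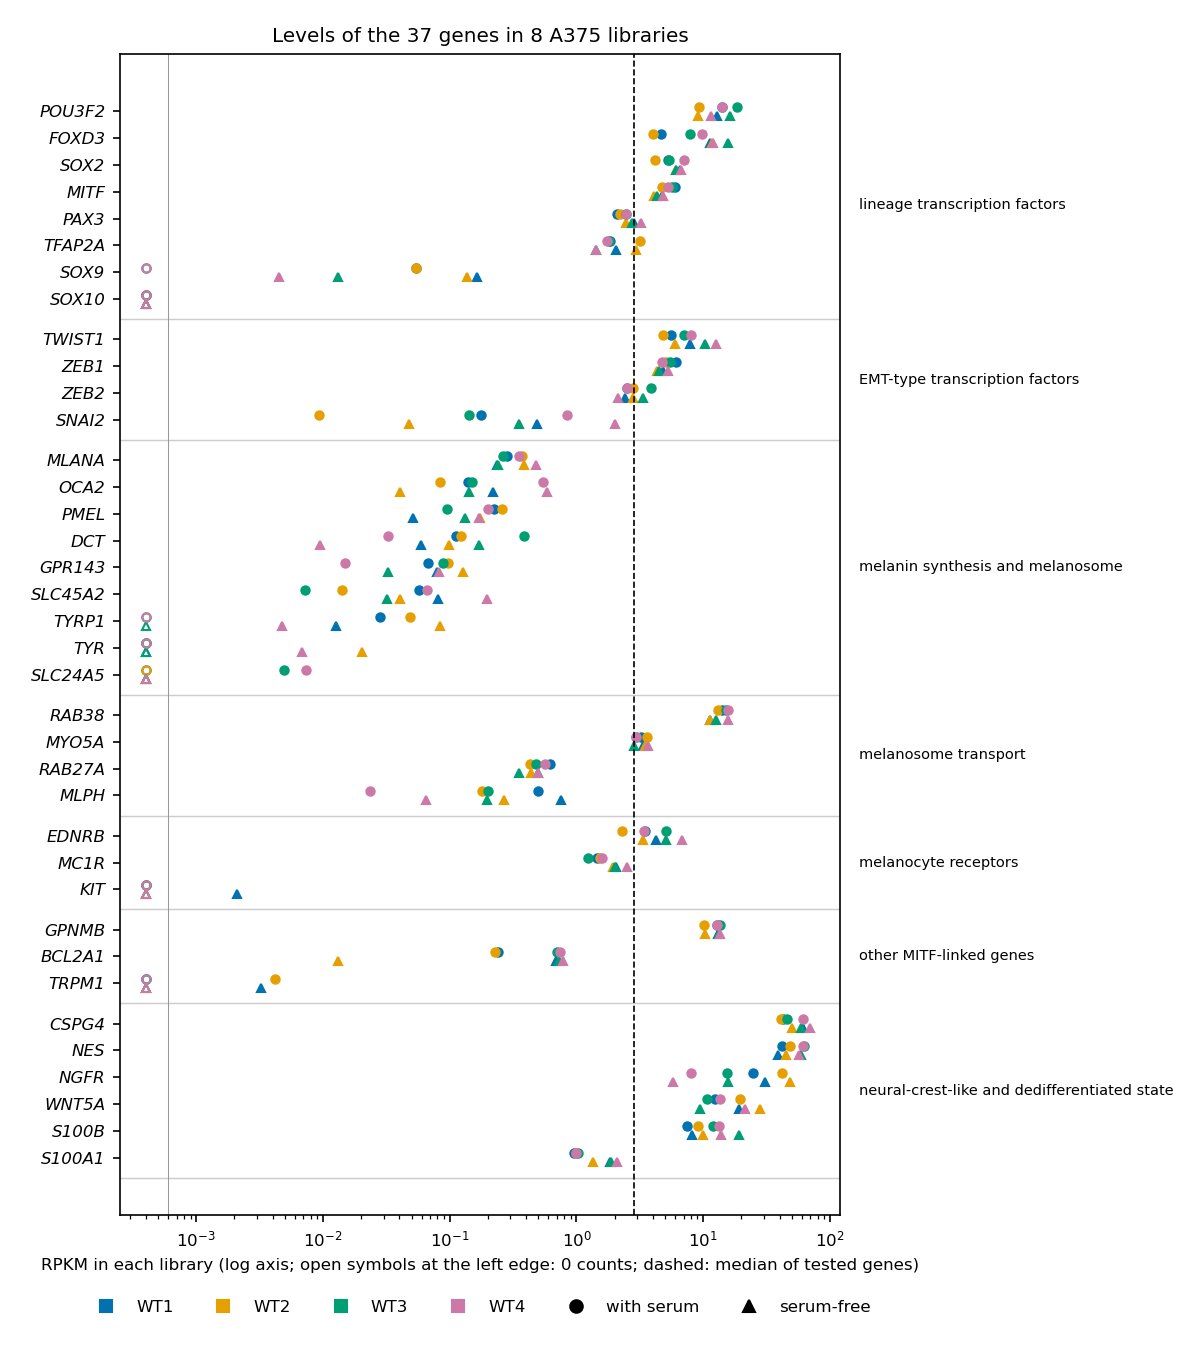
RPKM of each of the 37 genes (rows, by role) in each of the 8 libraries on a log axis, with colors for lines, circles for serum, triangles for serum-free and open symbols at the left edge for 0 counts. Genes of the neural-crest-like group lie mostly right of the dashed median of 2.856 RPKM, and all 9 melanin synthesis and melanosome genes lie left of it.

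*SOX10*, the neural crest factor that activates *MITF*, had 0 counts in each of the 8 libraries, of 386632132 counts in all. A count of 0 allows up to 3 counts, which is 0.0392 to 0.106 CPM depending on the library, and this covers counting error only. *SOX10* (chromosome 22 of GRCh38, 37972312 to 37984555) lies inside the span of *POLR2F* (37953663 to 38041915), a subunit gene of RNA polymerase II. *POLR2F* had 119 to 347 counts per library, against 3953 to 8378 for the subunit gene *POLR2E* and 1982 to 4332 for *POLR2H*. Reads that fitted more than 1 gene were set aside in the deposited counts, at 8.23% to 11.5% of reads per library. Of the exon length of *SOX10*, 5.39% is shared with *POLR2F*. Whether reads of *SOX10* were among those set aside was not tested, so the value is a count of reads assigned to *SOX10* and not a measure of its absence from the cells.

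Promoter windows of the pigment genes are shown because these genes are known for their M-box. RefSeq promoters of GRCh38.p14 were found for 28 of the 37 genes, and the 250 bases before each start were searched for the M-box letters TCATGTG on either strand (CACATGA on the other). They were present in 8 of 46 promoters of the 28 genes, 1 in each of 8 genes (*TYR*, *TYRP1*, *DCT*, *SLC24A5*, *GPR143*, *GPNMB*, *BCL2A1* and *ZEB2*), and in 2.52% of all 35116 promoters. Each window below is 60 bases, read 5′ to 3′ on the gene's strand and ending before the start, with the M-box letters in capitals.
TYR, chr11:89177743-89177802, plus strand: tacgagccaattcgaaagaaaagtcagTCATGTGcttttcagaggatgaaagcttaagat
TYRP1, chr9:12693213-12693272, plus strand: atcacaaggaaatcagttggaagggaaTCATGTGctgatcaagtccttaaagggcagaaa
DCT, chr13:94479785-94479844, minus strand: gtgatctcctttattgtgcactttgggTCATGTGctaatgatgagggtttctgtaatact
GPNMB, chr7:23246686-23246745, plus strand: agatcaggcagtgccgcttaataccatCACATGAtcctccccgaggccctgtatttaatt
The letters began 105 bases before the start in *TYR*, 145 in *TYRP1*, 135 in *DCT* and 62 in *GPNMB*. A second match, outside the windows shown, began 215 bases before the start in *DCT* and 123 in *GPNMB*. *TYR* and *TYRP1* were at the counting floor in most libraries while *GPNMB*, a melanosomal glycoprotein gene, was at 12.4 RPKM, so genes that share these letters were at the low and the high end of the range. A match is a description of the letters and not of binding.

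Windows of *FOXD3* and *MITF* are shown because they are the genes with the CRE letters. These letters, TGACGTCA, which read the same on both strands, were in the 250 bases before the start in 2 of the 46 promoters and in 1.65% of all promoters. Without serum *FOXD3* was higher and *MITF* lower. *MC1R*, which was higher too, held none of the 3 motifs searched, and neither did *S100A1*. They are in capitals here.
FOXD3, chr1:63322469-63322528, plus strand: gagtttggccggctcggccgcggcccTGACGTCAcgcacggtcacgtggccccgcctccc
MITF, chr3:69936414-69936473, plus strand: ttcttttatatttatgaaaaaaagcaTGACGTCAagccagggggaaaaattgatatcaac
They began 72 bases before the start in *FOXD3* and 152 before 1 of the 3 RefSeq starts of *MITF*. The E-box letters CACGTG were found in *FOXD3* (56 bases before the start, not overlapping the CRE) and *MLPH* (35 bases before), again 2 of 46 promoters, and in 6.34% of all promoters. The counts are per gene, so they do not say which start of *MITF* was used.

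Levels differed between the 4 lines in 2 of 4 tested pigment genes, 3 of 4 EMT-type factors and 5 of 6 neural-crest-like genes. With edgeR's quasi-likelihood F-test of line, in a model with condition as a second term and Benjamini-Hochberg adjustment over all genes tested, 15 of the 28 genes (53.6%) passed a threshold of 0.05, against 22.9% of all 17671 genes. In 12 of these 15 the highest line was the same with and without serum, in 14 the lowest line was the same, and in 11 both were. The F-test favors genes whose lines keep their order across conditions, so this agreement follows in part from how the 15 were picked. The widest spans between the highest and lowest line were in *SNAI2* (49.9-fold on mean CPM), *MLPH* (14.1-fold), *DCT* (13.2-fold), *OCA2* (9.05-fold) and *NGFR* (6.53-fold). The other 10 differed by 1.31-fold (*GPNMB*) to 2.36-fold (*WNT5A*). In *SNAI2*, *MLPH*, *DCT* and *OCA2* the lowest line had few counts, so the size of these spans is uncertain. With and without serum it had 2 and 12 (*SNAI2*, WT2), 5 and 27 (*MLPH*, WT4), 7 and 4 (*DCT*, WT4) and 18 and 10 (*OCA2*, WT2). The 4 lines have 1 library in each condition, and the spread in this test is what remains after an additive effect of serum.

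**Figure D2:**
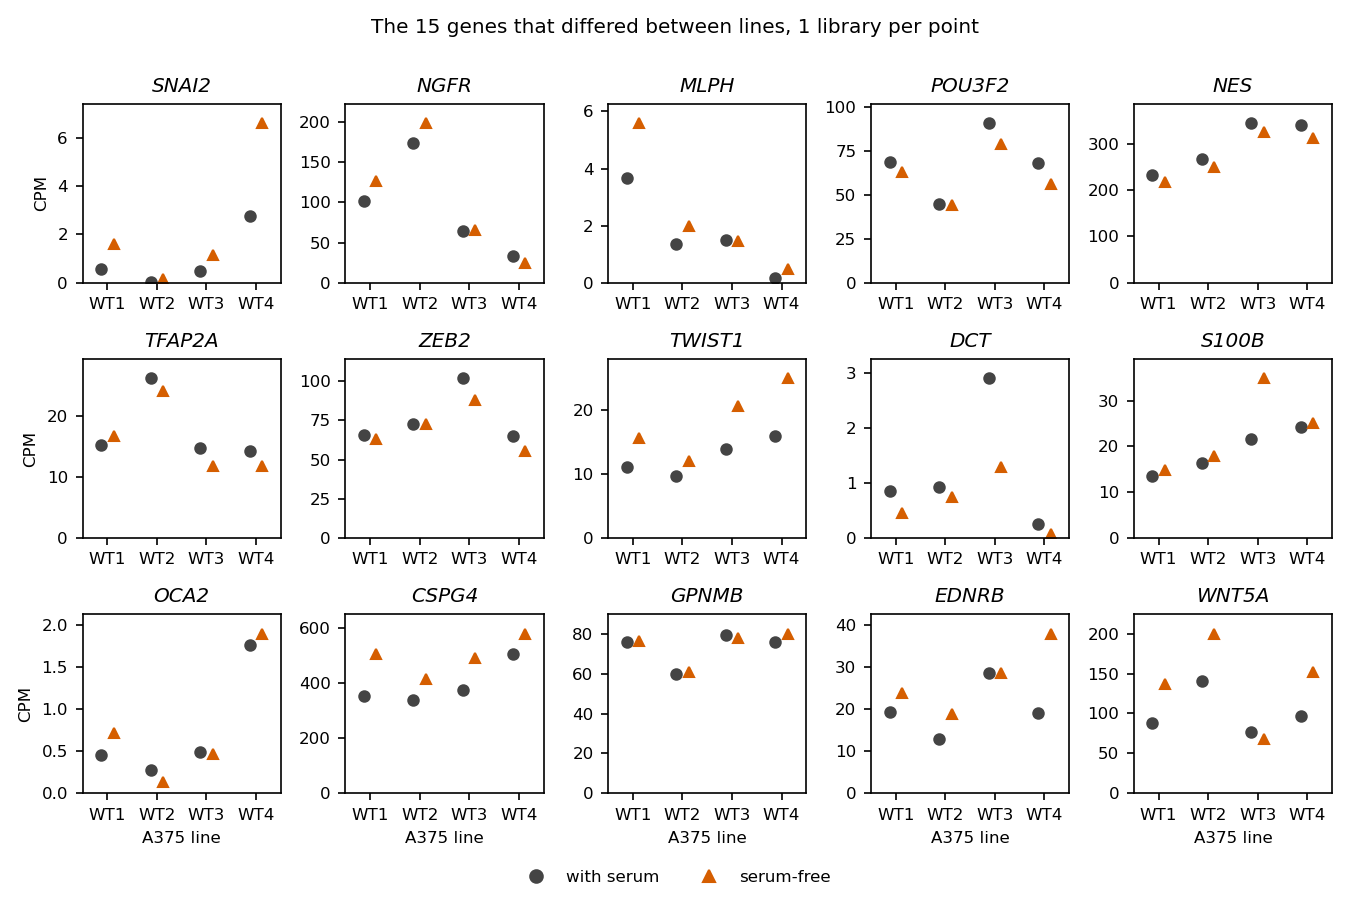
CPM (y axis, from 0) of the 15 genes that passed the test between lines, by line (x axis), with 1 gray circle for the serum library and 1 orange triangle for the serum-free library of each line. In *SNAI2* the WT4 points are highest and the WT2 points lowest, and in *NGFR* WT2 is highest and WT4 lowest.

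Each line was also compared with the mean of the other 3 in the same edgeR fit. WT4 differed in 12 genes, 7 higher (*SNAI2*, *TWIST1*, *OCA2*, *RAB38*, *S100B*, *NES*, *CSPG4*) and 5 lower (*TFAP2A*, *ZEB2*, *DCT*, *MLPH*, *NGFR*), which is 42.9% of the 28 against 25.4% of all genes. WT2 differed in 11 genes (39.3% against 8.68%), 3 higher (*TFAP2A*, *NGFR*, *WNT5A*) and 8 lower (*POU3F2*, *SNAI2*, *TWIST1*, *OCA2*, *EDNRB*, *GPNMB*, *BCL2A1*, *CSPG4*). WT3 differed in 7 genes (25% against 6.45%), with *POU3F2*, *ZEB2*, *DCT*, *S100B* and *NES* higher and *TFAP2A* and *WNT5A* lower. WT1 differed in 4 (14.3% against 5.36%), with *MLPH* and *NGFR* higher and *S100B* and *NES* lower. The 4 contrasts share libraries and are not independent of each other.

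With the line in the model, 13 of the 28 genes passed for serum removal and 15 between lines. Without it, 4 passed for serum removal. Without a block for line, edgeR's quasi-likelihood test called 3 of the 28 genes higher without serum (*FOXD3*, *MC1R*, *S100A1*), which is 10.7% against 11.1% of all genes, and 1 lower (*MITF*), which is 3.57% against 14.0%. In this fit, which leaves out the pairing of libraries by line, these shares were near or below the background. Of all calls 44.1% were higher without serum, and 57.6% with upper-quartile scaling, under which *PAX3* joined the 3 higher genes and *MITF* no longer passed. The median log2 fold change was 0.16 over the 28 genes and 0.03 over all genes tested, and with the block both medians were 0.04. With the line as a replicate block, which compares the 2 libraries of each line, 10 were higher (35.7%, against 23.2% of all genes) and 3 lower (10.7%, against 22.4%). The block added *PAX3*, *SNAI2*, *TWIST1*, *EDNRB*, *WNT5A*, *S100B* and *CSPG4* to the higher genes and *POU3F2* and *DCT* to the lower ones. In 8 of the 28 all 4 lines were higher without serum, in 5 all 4 were lower, and in 15 the lines differed in sign. The same shares over all genes tested were not computed, so these counts cannot be read against a background. The serum and serum-free values did not overlap in 3 genes (*FOXD3*, *MC1R*, *S100A1*; 10.7%), against 27.5% of all genes tested.

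**Figure D3:**
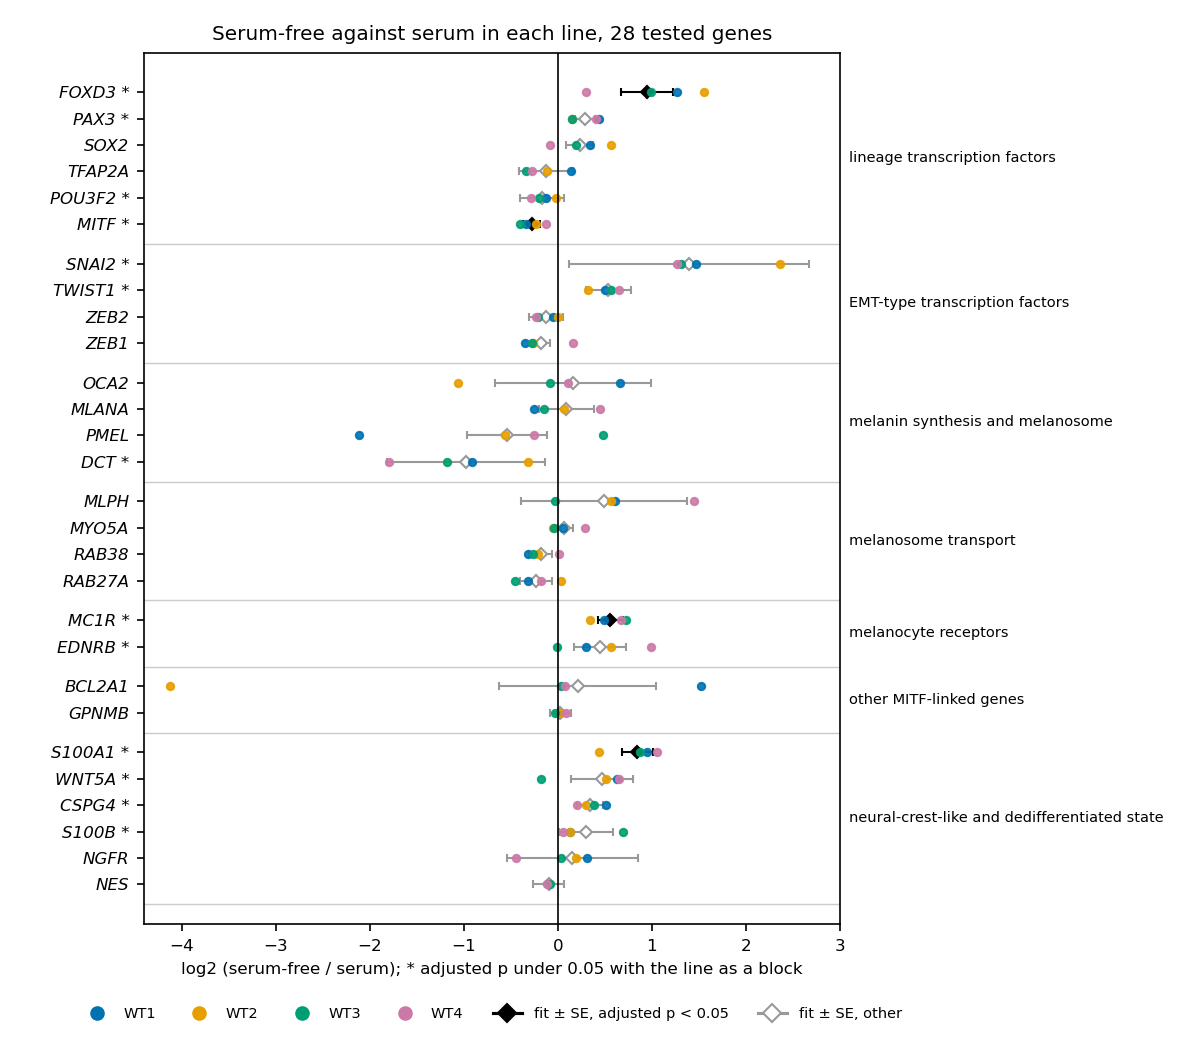
Log2 ratio of serum-free to serum CPM (x axis) in each line (colored points) for the 28 tested genes (rows, by role), with the fitted log2 fold change without a block and its SE as a diamond, black where edgeR's adjusted p was below 0.05. Asterisks mark the 13 genes that passed with the line as a block. The points of *FOXD3*, *MC1R* and *S100A1* are right of 0 in all 4 lines, and those of *BCL2A1* and *OCA2* lie on both sides.

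Among the 6 lineage transcription factors that were tested, *FOXD3*, a forkhead factor of the early neural crest, had the largest fold change for serum. It was at 11.9, 10.3, 20.1 and 25.03 CPM with serum in WT1 to WT4 and at 28.7, 30.1, 39.9 and 30.8 without. All serum-free values were above all serum values, and WT1 and WT2, the lowest lines with serum, had the largest log2 ratios. The log2 fold change was 0.95 ± 0.28 (SE; edgeR adjusted p = 0.0389), or 1.03 ± 0.20 with the block (edgeR adjusted p = 0.00695). The adjusted p ran from 0.00196 to 0.147 over 21 alternatives. The call was lost in 7 of the 8 fits that left out 1 library (all but serum WT4), and without the serum libraries of WT1 and WT2, whose share of multiply aligned reads was highest, the fold change was 0.52 (edgeR adjusted p = 0.0935). Between lines *FOXD3* did not pass (edgeR adjusted p = 0.231), though 5 of 18 alternatives called it. *FOXD3* shares 24.1% of its exon length with the antisense gene *FOXD3-AS1*, and the strand setting of the counts is not stated.

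*MITF* itself was at 44.1, 35.3, 42.2 and 38.9 CPM with serum and at 34.9, 30.1, 31.9 and 35.6 without. It was lower without serum within every line, and the conditions overlapped only between WT2 with serum and WT4 without. The log2 fold change was -0.28 ± 0.091 (edgeR adjusted p = 0.0496), and -0.27 ± 0.066 with the block (edgeR adjusted p = 0.00351). The adjusted p ran from 0.00351 to 0.203 over 21 alternatives, of which 14 lost the call. Among them were 6 of the 8 fits without 1 library (all but serum WT2 and serum WT4), while the sign was negative in all 21. *MITF* did not pass between lines, with a 1.21-fold span from WT2 to WT1 (edgeR adjusted p = 0.171). It passed in 4 of 18 alternatives, with GC correction (edgeR adjusted p = 0.0281), without either library of WT4 (0.0205 and 0.0233) and without both (0.0306).

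*PAX3*, the paired-box factor of melanoblasts, was at 16.6, 17.6, 19.7 and 19.5 CPM with serum and 22.4, 19.5, 21.8 and 25.8 without. Each of the 4 lines was higher without serum, with a log2 fold change of 0.29 ± 0.11 (edgeR adjusted p = 0.0716), and passed with the block (0.28, edgeR adjusted p = 0.01001). *SOX2*, a stem cell factor, was at 13.1, 10.4, 13.4 and 17.8 CPM with serum and 16.6, 15.4, 15.3 and 16.8 without. It was higher without serum in 3 lines and passed neither fit (edgeR adjusted p = 0.282, and 0.0522 with the block). *POU3F2* (BRN2), a factor of invasive melanoma cells, was at 68.9, 45.0, 90.9 and 68.1 CPM with serum and 62.9, 44.3, 79.1 and 56.0 without. The lines kept the order WT3, WT1, WT4, WT2 in both conditions (edgeR adjusted p = 1.72e-05 between lines). Serum-free values were lower in each line by a small amount that passed only with the block (-0.16, edgeR adjusted p = 0.0462, against 0.635 without it).

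*TFAP2A*, a neural crest factor that acts with *MITF*, was at 15.1, 26.1, 14.7 and 14.3 CPM with serum and 16.7, 24.1, 11.7 and 11.8 without. WT2 stood above the other lines in both conditions, by 0.84 ± 0.097 on the log2 scale (edgeR adjusted p = 3.39e-05). The test between lines passed (edgeR adjusted p = 9.61e-05) and was lost with both WT2 libraries left out (edgeR adjusted p = 0.252). *SOX9*, which marks *SOX10*-low melanoma cells, was not tested. It had 8, 14, 0 and 0 counts with serum and 27, 41, 2 and 1 without, so nearly all of its counts came from WT1 and WT2.

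Of the 4 EMT-type factors, 3 differed between lines (*SNAI2*, *TWIST1*, *ZEB2*), against 22.9% of all genes, and 2 rose without serum with the block (*SNAI2*, *TWIST1*), against 23.2%. *SNAI2* (Slug), a neural crest factor that is also active in melanocytes, was at 0.583, 0.0304, 0.467 and 2.75 CPM with serum and 1.61, 0.157, 1.15 and 6.60 without. WT4 was highest and WT2 lowest in both conditions, with 2 and 12 counts in the WT2 libraries. Against the mean of the other lines WT4 was higher by 3.43 ± 0.23 on the log2 scale (edgeR adjusted p = 9.48e-08) and WT2 lower, at -4.08 ± 0.36 (edgeR adjusted p = 2.75e-06). Every line had more *SNAI2* without serum, and the fold change with the block was 1.40 ± 0.24 (edgeR adjusted p = 2.51e-04). Without the block it was 1.39 ± 1.28 (edgeR adjusted p = 0.468), with overlapping conditions, and it ran from 0.065 without the serum-free library of WT4 to 2.8 without its serum library.

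*TWIST1* was at 11.04, 9.64, 14.0 and 15.9 CPM with serum and 15.6, 12.0, 20.6 and 24.98 without. Its lines kept the order WT4, WT3, WT1, WT2 in both conditions (edgeR adjusted p = 2.58e-04 between lines), and each line was higher without serum. The fold change was 0.54 ± 0.24 without the block (edgeR adjusted p = 0.133) and 0.51 ± 0.085 with it (edgeR adjusted p = 2.23e-04). The repressors *ZEB1* and *ZEB2*, which are said to be exchanged when melanocytic cells dedifferentiate, were both expressed. *ZEB1* was at 46.4 ± 5.19 CPM with serum and 40.9 ± 3.71 without (s.d., n = 4), with no call in either comparison. It passed for serum with both WT4 libraries left out (-0.29, edgeR adjusted p = 0.0250), and 2 of 18 alternatives called it between lines. *ZEB2* was at 65.5, 72.5, 102 and 65.2 CPM with serum and 63.2, 72.4, 88.1 and 55.3 without. WT3 was highest, by 0.54 ± 0.068 against the mean of the others (edgeR adjusted p = 1.91e-04), and the call between lines was lost with both WT3 libraries left out (edgeR adjusted p = 0.154).

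Of the 9 melanin synthesis and melanosome genes, 4 had enough counts to be tested. *TYR*, tyrosinase, the first enzyme of melanin synthesis, had 4 counts in serum-free WT2, 1 in serum-free WT4 and 0 in the other 6 libraries. *TYRP1* had 4, 12, 0 and 0 counts with serum and 2, 24, 0 and 1 without, so most came from WT2. The transporter genes *SLC24A5* and *SLC45A2* had 2 and 78 counts in all, and *GPR143*, a melanosome receptor gene, had 76. None of these 5 was tested. *SLC24A5* shares 33.1% of its exon length with *MYEF2*, so part of its reads may have been set aside.

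Of the 4 pigment genes that were tested, 2 differed between lines, against 22.9% of all genes. *DCT*, dopachrome tautomerase, was at 0.847, 0.928, 2.90 and 0.246 CPM with serum and 0.450, 0.745, 1.28 and 0.0710 without. WT3 was highest and WT4 lowest in both conditions, at 2.22 ± 0.31 above and -2.84 ± 0.46 against the mean of the other lines (edgeR adjusted p = 4.14e-04 and 3.82e-04). All 4 lines had less *DCT* without serum, with a log2 fold change of -0.98 ± 0.84 (edgeR adjusted p = 0.435) or -0.89 ± 0.30 with the block (edgeR adjusted p = 0.0251). *OCA2*, a melanosomal ion transport gene, was at 0.450, 0.274, 0.490 and 1.76 CPM with serum and 0.711, 0.131, 0.462 and 1.90 without. WT4 stood above the others (2.26 ± 0.33, edgeR adjusted p = 1.95e-04) and WT2 below (-1.99 ± 0.43, edgeR adjusted p = 0.00697). Its call between lines was lost with both WT4 libraries left out (edgeR adjusted p = 0.133). *PMEL*, the fibril protein of melanosomes, was at 0.713 ± 0.256 CPM with serum and 0.485 ± 0.208 without. *MLANA*, which encodes the MART-1 antigen, was at 0.952 ± 0.155 and 1.01 ± 0.356 CPM (s.d., n = 4). Neither passed in any comparison.

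Genes that sort and move melanosomes were expressed in all 8 libraries. *RAB38*, a small GTPase that brings enzymes to the melanosome, was at 14.5 ± 1.16 RPKM with serum and 12.8 ± 2.11 without. The motor gene *MYO5A* was at 3.19 ± 0.316 and 3.33 ± 0.337 RPKM, and *RAB27A*, which ties melanosomes to that motor, at 0.523 ± 0.0848 and 0.446 ± 0.0685 (s.d., n = 4). None of these 3 passed in the serum comparison, with or without the block, or in the F-test between lines. With GC correction and the block *RAB38* (-0.19, edgeR adjusted p = 0.02896) and *MYO5A* (0.13, edgeR adjusted p = 0.03475) passed for serum, and with GC correction both passed between lines (edgeR adjusted p = 0.0227 and 0.0170). *MLPH*, the adaptor between *RAB27A* and *MYO5A* proteins, did differ between lines. It was at 3.68, 1.34, 1.495 and 0.176 CPM with serum and 5.59, 1.97, 1.46 and 0.479 without. WT1 was highest (2.27 ± 0.22, edgeR adjusted p = 2.42e-05) and WT4 lowest (-2.70 ± 0.31, edgeR adjusted p = 2.08e-05) in both conditions.

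The receptors differed from each other. *MC1R*, the melanocortin receptor that raises cyclic AMP in melanocytes, was at 6.94, 7.25, 5.82 and 7.50 CPM with serum and 9.78, 9.21, 9.60 and 11.9 without. Every serum-free value was above every serum value, by 0.56 ± 0.13 on the log2 scale (edgeR adjusted p = 0.0138, or 6.27e-04 with the block). The call held in all 8 fits without 1 library and was lost without both libraries of WT1 (edgeR adjusted p = 0.0762) or of WT3 (0.0753), after GC correction without a block (0.0552) and without the serum libraries of WT1 and WT2 (0.0853), and its adjusted p ran from 6.27e-04 to 0.0853 over 21 alternatives. *MC1R* shares 48.2% of its exon length with other genes of the table, so its counts are uncertain. *EDNRB*, the endothelin receptor of melanoblasts, was at 19.4, 12.8, 28.7 and 19.2 CPM with serum and 23.9, 18.9, 28.6 and 38.0 without. WT4 moved most and WT3 hardly at all, and the fold change was 0.45 ± 0.28 (edgeR adjusted p = 0.266) or 0.46 ± 0.13 with the block (edgeR adjusted p = 0.0137). WT2 was lowest in both conditions (edgeR adjusted p = 0.0136 between lines, 0.0740 without the serum library of WT2 and 0.232 without both WT2 libraries). *KIT*, the stem cell factor receptor, had 1 count in all 8 libraries.

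Of the other *MITF*-linked genes, *GPNMB* was the most even gene that still differed between lines. It was at 75.7, 59.8, 79.5 and 75.7 CPM with serum and 76.6, 60.8, 77.9 and 80.2 without. WT2 was lower by 0.36 on the log2 scale against the mean of the others, at -0.36 ± 0.065 (edgeR adjusted p = 0.00176), and the F-test call was lost without the serum or the serum-free WT2 library (edgeR adjusted p = 0.125 and 0.153) and without both (0.929). *BCL2A1*, an anti-apoptotic gene, was at 0.238, 0.228, 0.701 and 0.739 CPM with serum and 0.687, 0.0131, 0.719 and 0.781 without, where WT2 had 1 count, and passed neither the serum test nor the F-test. Between lines 5 of 17 alternatives called it, among them DESeq2's likelihood ratio test (adjusted p = 0.0447). The channel gene *TRPM1*, long known as melastatin, had 3 counts in all.

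Neural-crest-like genes held the highest levels. *NGFR* (CD271), which shares 27.2% of its exon length with other genes of the table, was at 102, 173.5, 64.0 and 32.9 CPM with serum and 127, 199, 65.3 and 24.1 without. The order WT2, WT1, WT3, WT4 was the same in both conditions, and every neighboring pair was apart by more than the difference that serum made within those lines. WT2 was above the mean of the others by 1.65 ± 0.11 (edgeR adjusted p = 2.75e-06) and WT4 stood at -1.98 ± 0.13 (edgeR adjusted p = 1.96e-06). The serum comparison gave 0.15 ± 0.70 (edgeR adjusted p = 0.900), and with a correction for GC content and the block it turned to -0.22 (edgeR adjusted p = 0.0272). *WNT5A* was at 88.3, 140.4, 76.6 and 97.3 CPM with serum and 137, 200.1, 67.7 and 152 without. It was higher without serum in WT1, WT2 and WT4 and lower in WT3, with 0.41 ± 0.14 with the block (edgeR adjusted p = 0.0480, against 0.335 without it). The lines differed (edgeR adjusted p = 0.0217), a call that was lost without the serum library of WT4 (0.282), its serum-free library (0.226) or both (0.263), and without both libraries of WT2 (0.0681).

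*S100A1*, a calcium-binding protein gene, kept its call in most alternatives. It was at 2.91, 3.01, 3.11 and 3.03 CPM with serum and 5.61, 4.08, 5.70 and 6.28 without. The serum values lay close together and all serum-free values were above them, with WT2 moving least. The fold change was 0.84 ± 0.16 (edgeR adjusted p = 0.00605), or 0.82 ± 0.14 with the block (edgeR adjusted p = 3.17e-04). It held in all 8 fits without 1 library, and over 21 alternatives the adjusted p ran from 4.32e-05 to 0.0726, with 2 lost calls (without WT1, and without the serum libraries of WT1 and WT2). *S100A1* shares 18.3% of its exon length with other genes of the table. *S100B*, a clinical marker of melanocytic cells, was at 13.6, 16.3, 21.5 and 24.1 CPM with serum and 14.9, 17.9, 34.9 and 25.1 without. WT1 was lowest in both conditions (-0.68 ± 0.12, edgeR adjusted p = 0.00375), and the rise without serum passed only with the block (0.26, edgeR adjusted p = 0.0469).

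*NES* (nestin), an intermediate filament gene of neural progenitors, was at 233, 268, 346 and 341 CPM with serum and 218, 251, 327 and 314 without. The order WT3, WT4, WT2, WT1 was kept (edgeR adjusted p = 5.81e-05 between lines), and each line was lower without serum by 0.08 to 0.12 on the log2 scale, which passed neither fit (edgeR adjusted p = 0.709, and 0.129 with the block). With a correction for GC content and the block it passed, at -0.30 (edgeR adjusted p = 4.677e-05). *CSPG4* (NG2), a surface proteoglycan of melanoma cells, was at 355, 339, 377 and 505 CPM with serum and 508, 416, 492 and 581 without. WT4 was highest in both conditions (0.40 ± 0.065, edgeR adjusted p = 4.08e-04). All lines were higher without serum, by 0.34 ± 0.14 (edgeR adjusted p = 0.103) or 0.35 ± 0.058 with the block (edgeR adjusted p = 1.93e-04). Reads of *CSPG4* may be shared with its pseudogene copies.

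Content of G and C bases moved with the serum response, and its part in the members' values was not tested beyond a correction. Across 17425 genes with a known GC content, which are not independent replicates, the log2 fold change rose with GC content (Spearman's rho 0.358). With that trend removed and the block kept, 13 of the 28 genes passed (46.4%, near the 46.1% of all genes), of which 9 also passed in the same direction with the block alone. Higher, with the block alone and then with the correction too, were *FOXD3* (1.03 and 0.72), *PAX3* (0.28 and 0.23), *SNAI2* (1.40 and 1.48), *TWIST1* (0.51 and 0.34), *MC1R* (0.55 and 0.34), *EDNRB* (0.46 and 0.61) and *S100A1* (0.82 and 0.62). Lower were *MITF* (-0.27 and -0.16) and *POU3F2* (-0.16 and -0.16). *DCT* (-0.89 and -0.73), *WNT5A* (0.41 and 0.50), *S100B* (0.26 and 0.16) and *CSPG4* (0.35 and 0.08) no longer passed. The call of *WNT5A* was thus lost without a smaller fold change. The other 4 passed only with both, *MYO5A* higher and *RAB38*, *NGFR* and *NES* lower. With the trend removed and no block, 1 of the 28 passed (*S100A1*; 3.57%, against 27.0% of all genes). In bulk RNA, fewer cells that express a gene and less RNA per cell cannot be told apart.

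Other genes of the same pathways were counted from lists, in which *NRG1*, *ERBB3* and *SNAI1* each stand on 2. Their counts stand beside 11.1% of all genes higher and 14.0% lower without the block, and 23.2% and 22.4% with it. Among 14 tested ligands and signals to melanocytes, 1 was higher without serum and 1 lower (2 and 5 with the block). *ERBB3*, the neuregulin receptor, was higher (331 ± 66.2 CPM with serum, 496 ± 103 without; 0.58 ± 0.18, edgeR adjusted p = 0.0441). *KITLG*, the ligand of *KIT*, was lower (9.09 ± 1.91 and 5.78 ± 1.30 CPM; -0.65 ± 0.20, edgeR adjusted p = 0.0400). *NRG1*, a ligand of that receptor family, and *FGF2* had the smallest p between lines. Both were lowest in WT4, where *NRG1* was at 0.493 CPM with serum against 10.6 to 13.2 in the other lines. Both were also lower without serum in every line and passed with the block only. The log2 fold changes with the block were -1.31 for *NRG1* and -0.63 for *FGF2* (edgeR adjusted p = 1.15e-05 and 8.41e-06, against 0.382 and 0.116 without it). The melanocortin ligand gene *POMC* and the endothelin gene *EDN3* had 0 counts.

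Of 15 tested *MITF*-family factors and further *MITF*-linked genes, 0 were higher and 3 lower without serum by edgeR without a block, and 2 and 4 with it. The cyclin-dependent kinase gene *CDK2* fell from 93.1 ± 6.27 to 43.9 ± 2.75 CPM (-1.08 ± 0.074, edgeR adjusted p = 2.88e-04), with no overlap between conditions. *HIF1A*, the hypoxia factor, fell from 284 ± 32.9 to 191 ± 10.5 CPM (-0.58 ± 0.088, edgeR adjusted p = 0.00242), and the third was the formin gene *DIAPH1* (-0.32, edgeR adjusted p = 0.00657). The related factors *TFE3* and *TFEB* passed in neither fit. Between lines, *TBX2*, a T-box repressor of senescence, was highest in WT4 (103 CPM with serum, against 31.4 to 65.1 in the other lines), and *ACP5* was highest there as well.

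The melanosome biogenesis and trafficking list, made mostly of genes that every cell uses, had 7 genes higher (20.6%, against 11.1% of all genes) and 5 lower (14.7%, against 14.0%) of 34 tested. With the block these were 12 (35.3%, against 23.2%) and 6 (17.6%, against 22.4%). *RAB5B*, an endosomal GTPase gene, rose from 71.8 ± 3.30 to 91.6 ± 1.22 CPM (0.35 ± 0.058, edgeR adjusted p = 0.00346), and the kinesin gene *KIF5B* fell from 453 ± 42.2 to 329 ± 15.3 CPM (-0.46 ± 0.078, edgeR adjusted p = 0.00357). *HPS1*, a Hermansky-Pudlak syndrome gene, rose (0.51 ± 0.12, edgeR adjusted p = 0.0139) and was highest in WT4. *VPS18* had the second smallest p between lines on this list (edgeR adjusted p = 0.0283).

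The list for the *MITF*-low, AXL-type state differed between lines in 23 of 28 tested genes (82.1%, against 22.9% of all genes). *NRG1* and *EGFR* had the smallest p, and *EGFR* was at 32.1, 34.8, 11.8 and 8.98 CPM with serum in WT1 to WT4. Without serum 1 gene was higher and 4 lower (14.3%, against 14.0% of all genes), and 4 and 14 (50% against 22.4% lower) with the block. *TEAD1*, a YAP partner, fell from 209 ± 17.5 to 139 ± 7.56 CPM (-0.59 ± 0.076, edgeR adjusted p = 0.00148), and *PLAUR*, the urokinase receptor, from 48.7 ± 6.77 to 36.6 ± 2.38 (-0.41 ± 0.10, edgeR adjusted p = 0.0184). *AXL* itself was at 590.0 ± 82.9 CPM with serum and 471 ± 121 without, and passed with the block only (-0.35, edgeR adjusted p = 5.88e-04). *AXL* falls outside the rule for named genes and was chosen after its values were seen.

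The neural-crest-stem-like list had 2 genes higher (10.5%, near the 11.1% of all genes) and 0 lower of 19 tested without the block. With it 11 were higher (57.9%, against 23.2%) and 1 lower. *AQP1*, a water channel gene of that state, rose from 0.616 ± 0.0941 to 1.21 ± 0.230 CPM (0.97 ± 0.24, edgeR adjusted p = 0.0166), and *ERBB3* is on this list too. *TFAP2B* and the retinoid receptor gene *RXRG* differed most between lines. *TFAP2B* was at 31.8, 8.48, 89.6 and 129 CPM with serum and 109, 26.5, 205 and 319.8 without. WT4 was highest and WT2 lowest in both conditions, and each line was higher without serum, by 1.47 ± 0.085 with the block (edgeR adjusted p = 4.63e-08) and 1.36 ± 0.94 without it (edgeR adjusted p = 0.333). *RXRG* was at 5.98, 7.92, 13.1 and 27.9 CPM with serum and 12.8, 14.7, 28.002 and 55.1 without (1.01 ± 0.077 with the block, edgeR adjusted p = 2.88e-07; 1.02 ± 0.63 without it, edgeR adjusted p = 0.278). The median log2 fold change without the block was 0.26 on this list, -0.17 on the AXL-type list and 0.03 over all genes tested.

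**Figure D4:**
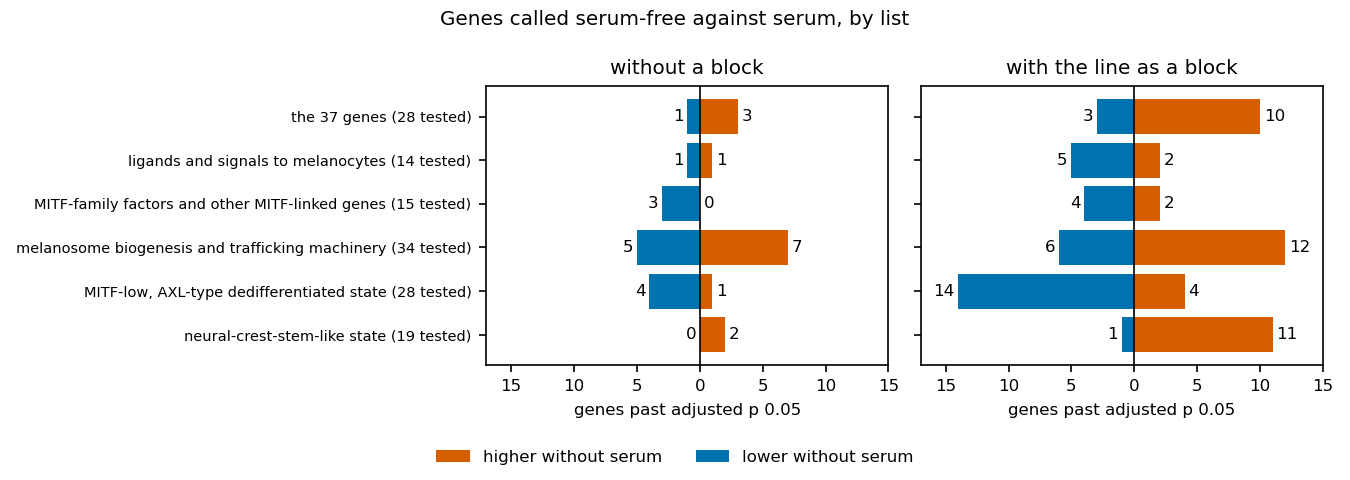
Number of genes past an adjusted p of 0.05 (x axis) that were higher (orange, right) or lower (blue, left) without serum, for the 37 genes and the 5 pathway lists, by edgeR without a block (left panel) and with the line as a block (right panel). The neural-crest-stem-like list goes from 2 and 0 to 11 and 1, and the AXL-type list from 1 and 4 to 4 and 14.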

How the data were processed

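RNA depleted of ribosomal RNA was sequenced as paired-end reads from 8 libraries of A375 cells, 4 per condition. The deposited values are whole-number HTSeq counts for each gene of GRCh38 with no normalization by the authors; per the submitters' processing notes, cutadapt and TopHat2 2.0.11 came before. Which annotation release and strand setting were used is not given in the sources used here, so antisense and overlapping genes are uncertain. Genes were named by Ensembl identifier. Promoters and positions are from RefSeq for GRCh38.p14, and exon lengths and GC content from a GENCODE annotation on GRCh37 coordinates, while the counts are on GRCh38.

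Tests were made in R 4.3.3 with edgeR 4.0.16, by glmQLFit (robust) and glmQLFTest after filterByExpr and TMM scaling, with Benjamini-Hochberg adjustment over 17671 genes and a threshold of 0.05. The serum test had no block, and the line as a replicate block was the alternative. Lines were tested in a model of line plus condition with 3 residual degrees of freedom. Condition and line came from the sample titles. The pairing comes from the cell line: deviations from the condition means correlated at 0.403 to 0.604 within a line and at most at 0.126 with another line. Each p-value sets a difference against a spread between these libraries. Without the block this is the spread between lines within a condition, and with it what remains after additive line and serum effects. The number of counts also sets the precision.

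The genes and the lists were chosen with earlier results of these data known. Named were all 37 genes and, from each pathway list, the 2 genes with the smallest p for serum and the 2 between lines, among those past the threshold. *AXL*, *DIAPH1*, *TFE3*, *TFEB*, *POMC* and *EDN3* and the markers of other cell types fall outside this rule. Of the lists, *LOR* and *PECAM1* could not be matched by symbol. Alternatives were DESeq2 1.42.0, other scalings, filters and gene lengths, GC correction, and each library or line left out. Leaving out the serum libraries of WT1 and WT2 was added after the data were seen. The tests were run on simulated counts with mostly small line differences and known changes placed in genes with many counts. That run does not speak for genes near the counting floor or for the rate of false calls.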

Additional observations from a re-analysis of the deposited data

Results flagged for a closer look

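In 56 sets of 4 libraries (28 genes in each condition), 3 held a value whose gap to its nearest neighbor was above the 95% limit of Dixon's ratio for 4 samples. Chance flags about 1 set in 20, or 2.8 sets here. *TFAP2A* in WT2 with serum was at 26.1 CPM against 14.3 to 15.1 in the other lines (ratio 0.925). *OCA2* in WT4 with serum was at 1.76 CPM against 0.274 to 0.490 (ratio 0.854). *BCL2A1* in WT2 without serum was at 0.0131 CPM, a single count, against 0.687 to 0.781 (ratio 0.877).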

How the results depend on the processing

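Line differences held most widely. All 15 calls held under DESeq2, RLE and upper-quartile scaling, and 14 with GC correction, where *WNT5A* was lost (edgeR adjusted p = 0.0997). Genes called between lines ran from 2364 to 7580 with 1 library left out (without serum-free WT2 and without serum-free WT4). Serum calls depended on the block: 8067 of all genes, 59 pathway genes against 23 and 13 of the 28 genes passed with the replicate block, and 8153 and 13 with GC correction and the block. The pathway counts with the block were 7 for ligands, 6 for *MITF*-linked genes, 18 for the AXL-type list and 12 for the neural-crest-stem-like list (4 with DESeq2). Without a block, 2 passed of the 36 tested with no filter, and 1 of the 28 with GC correction. With 1 library left out, 2842 (without serum WT1) to 6128 (without serum WT4) genes and 2 to 6 of the 28 passed. Without both libraries of WT1, WT2, WT3 or WT4, 0, 2, 1 and 7 of the genes passed (of 29 tested without WT1 and 28 otherwise), and 1589, 1975, 1873 and 5631 of all genes. Without the serum libraries of WT1 and WT2, 1098 of all genes and 0 of the 30 tested passed. The cause was not tested, beyond the fewer libraries in these fits.

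Serum-free against serum, the sign turned for some genes that had not passed. With the block it turned for *OCA2* (-0.025) and *BCL2A1* (-0.059), with GC correction and the block for *ZEB2* (0.031), *OCA2* (-0.11) and *NGFR* (-0.22), and with GC correction alone for *ZEB2* (0.029) and *NGFR* (-0.13). *BCL2A1* turned without WT1 (-0.14), and *MLANA* (-0.075) and *MYO5A* (-0.012) without WT4. *TFAP2A* (0.15), *OCA2* (-0.47), *GPNMB* (-0.076) and *BCL2A1* (-0.42) turned without the serum libraries of WT1 and WT2. With 1 library left out, the fold change ran from -0.39 to 0.13 for *TFAP2A*, -0.76 to 0.997 for *OCA2*, -0.062 to 0.11 for *GPNMB*, -0.048 to 0.65 for *BCL2A1*, -0.27 to 0.041 for *ZEB2*, -0.37 to 0.64 for *NGFR*, -0.36 to 1.20 for *MLPH*, -1.53 to -0.129 for *DCT* and -0.13 to 0.22 for *MLANA*.

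With the longest transcript in place of merged exons, 18 of the 28 genes were above the median, which was 4.009 RPKM. Among the levels that moved were those of *MYO5A* (to 12.0 RPKM), *GPNMB* (26.5), *S100B* (18.96) and *MITF* (7.63). Genes under about 3 counts, such as *TYR* and *KIT*, were below what this depth can compare.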
